A study of Homo sapiens with 6 samples.

Results

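Histone chaperones are proteins that escort histones from their synthesis to their place on DNA, and the 10 genes described here encode members of that machinery together with one factor that acts on histone mRNA. They were taken by name as NASP, ASF1A, ASF1B, CHAF1A, CHAF1B, SSRP1, SUPT16H, NAP1L1, ANP32E and SLBP. All 10 were found among the 62700 human genes of the deposited table and all 10 were among the 12871 genes tested, with at least 1 FPKM in each of the 6 libraries. FPKM is a fragment count scaled by the length of the gene and the size of the library.

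The cells were A549, an epithelial line established from a human lung adenocarcinoma, and their bulk RNA was sequenced. The sgControl group of 3 libraries carries a control guide RNA and is labelled wild type. The sgH2AC19 group of 3 libraries carries a guide RNA against H2AC19, which encodes a core histone H2A made in S phase, and the series describes these cells as knockout derivatives. Both groups were grown in the same serum-containing medium. Whether the edited cells were a clone or a pool, and whether the replicates were separate cultures, is not given in the sources used here, so the p-values rest on a spread among libraries that may be technical only.

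During S phase a cell makes as much new histone as it has DNA to wrap, and free histones are bound by chaperones at each step. NASP holds soluble H3-H4, ASF1 takes H3-H4 dimers on to the deposition factors, and CAF-1 places them on freshly copied DNA. FACT and NAP1L1 handle H2A-H2B, ANP32E removes the variant H2A.Z from chromatin, and SLBP binds the stem-loop that ends replication-dependent histone mRNAs in place of a poly(A) tail. In cycling cells several of these genes are known to be transcribed most strongly around the start of S phase.

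The recovered read totals ran from 35681162 to 45738439 per library, and from 460 to 43727 reads lay behind each member's value in a library. H2AC19 and its near-identical copy H2AC18 were listed at 0 FPKM in all 6 libraries, so the direction of every difference rests on the labels. On the second principal component sgH2AC19 replicate 3, at −16.0, stood away from replicates 1 and 2 of its group, at 8.09 and 8.32. The 10 epithelial and A549 markers summed to 3305 to 3475 FPKM in sgControl and to 4210 to 4489 FPKM in sgH2AC19, and all 10 were at 1 FPKM or more in every library. ALDH1A1 made up most of that sum (means of 2081 and 2679 FPKM), and 7 of the 10 were called higher while KRT19 was called lower (−0.45, limma adjusted p = 0.0023). Markers of endothelial cells summed to 1.07 FPKM or less in every library. The 10 fibroblast markers summed to 4.56 to 5.10 FPKM in sgControl and 6.73 to 7.34 FPKM in sgH2AC19 with POSTN at 0 throughout and LUM and COL1A1 called higher (COL1A1 passed the filter through sgH2AC19 alone), and the 10 leukocyte markers to 3.07 to 3.22 and 3.27 to 4.63 FPKM with CD3D, CD3E and MS4A1 at 0 throughout. The part of any of these differences in the results was not tested, and in bulk RNA fewer cells of a type and less RNA per cell cannot be told apart.

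Of the 10 genes, NASP, SUPT16H and CHAF1B rose in sgH2AC19 and none fell (limma on log2(FPKM + 1), Benjamini-Hochberg adjusted over all genes tested, threshold 0.05). That is 3 of 10 called higher, where 12.0% of all genes tested were called higher, and 0 of 10 called lower, where 11.0% were. At an unadjusted p under 0.05 the counts were 5 higher and 0 lower, where 2400 and 2438 of all 12871 genes tested were. In 5 members the 3 sgH2AC19 libraries lay above the 3 sgControl libraries, as in 21.5% of all genes tested. In 0 members they lay below, against 21.7%. The median log2 fold change was 0.20 over the 10 members and −0.01 over all genes tested. By role, the median was 0.27 over the 5 chaperones of H3-H4, 0.18 over the 2 FACT subunits and −0.04 over NAP1L1 and ANP32E.

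**Figure D1:**
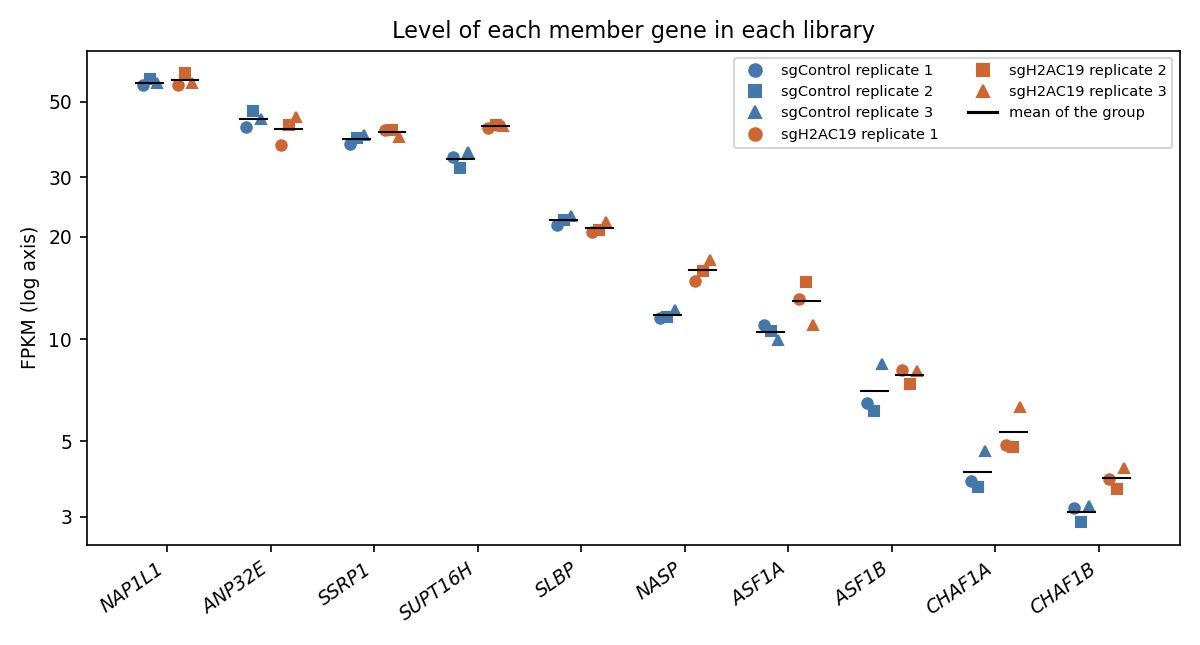
FPKM of each member (log axis) in the 3 sgControl and the 3 sgH2AC19 libraries, with one marker per library and a line at the group mean. The groups are apart for NASP, SUPT16H, ASF1A, CHAF1A and CHAF1B and overlap for the other 5.

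Levels in sgControl ran from NAP1L1 at 57.0 ± 1.15 FPKM (SD, n = 3) through ANP32E, SSRP1, SUPT16H, SLBP, NASP, ASF1A, ASF1B and CHAF1A to CHAF1B at 3.10 ± 0.187 FPKM. No neighbours in this order overlapped in sgControl. In sgH2AC19 SUPT16H moved from the fourth place to the second, where it overlapped ANP32E, and ANP32E overlapped SSRP1. The other neighbours stayed apart. These levels are per length, and the lengths that gave whole reads ran from 1884 bases for SLBP to 17059 bases for NAP1L1, so the order depends on the exons counted for each gene.

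NASP (ENSG00000132780; GRCh38, chromosome 1 from 45583846 to 45618904, plus strand) encodes a chaperone that keeps a reserve of soluble H3-H4. It was at 11.5, 11.6 and 12.1 FPKM in sgControl replicates 1 to 3 and at 14.8, 15.8 and 17.1 FPKM in sgH2AC19 replicates 1 to 3. All sgH2AC19 libraries lay above all sgControl libraries, and sgH2AC19 replicate 3 was the highest. The means were 11.7 ± 0.348 and 15.9 ± 1.15 FPKM, which is 0.41 higher on the log2 scale (SE 0.0595, limma adjusted p = 0.00434). The call held in all 13 alternative fits, with an adjusted p of at most 0.0229.

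ASF1A (ENSG00000111875; chromosome 6 from 118894220 to 118909167, plus strand) and ASF1B (ENSG00000105011; chromosome 19 from 14119509 to 14136956, minus strand) encode the paralogous forms of ASF1. ASF1A was at 11.0, 10.5 and 9.96 FPKM in sgControl and at 13.1, 14.8 and 11.0 FPKM in sgH2AC19. The groups were apart, but sgH2AC19 replicate 3 exceeded sgControl replicate 1 by little, and the difference of 0.27 on the log2 scale (SE 0.0969, limma adjusted p = 0.0807) was not called. It was called without sgH2AC19 replicate 3, at 0.38 (adjusted p = 0.00883), and with voom on recovered reads (adjusted p = 0.0388).

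ASF1B, the form known for its tie to proliferation, was at 6.48, 6.14 and 8.43 FPKM in sgControl and at 8.11, 7.36 and 8.07 FPKM in sgH2AC19. The highest of all 6 values was that of sgControl replicate 3, so the groups overlapped. The log2 fold change was 0.15 (95% interval −0.10 to 0.40, limma adjusted p = 0.335). Without sgControl replicate 3 it was 0.27 and called (adjusted p = 0.0456), so that library decides the call. The ratio of ASF1B to ASF1A ran from 0.583 to 0.847 in sgControl and from 0.498 to 0.731 in sgH2AC19, with no difference beyond the spread (−0.12 on the log2 scale, exact permutation test, two-sided p = 0.7, n = 3 each).

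CHAF1A (ENSG00000167670; chromosome 19 from 4402662 to 4445018, plus strand) and CHAF1B (ENSG00000159259; chromosome 21 from 36385378 to 36419015, plus strand) encode the large and the middle subunit of CAF-1. CHAF1B was at 3.18, 2.89 and 3.23 FPKM in sgControl and at 3.87, 3.62 and 4.18 FPKM in sgH2AC19. It rose from 3.10 ± 0.187 to 3.89 ± 0.283 FPKM (log2 fold change 0.25, SE 0.0653, limma adjusted p = 0.031). The groups did not overlap, yet the call was kept in 7 of 13 alternative fits, with adjusted p up to 0.104. It was lost without any 1 of the 3 sgControl libraries (0.0749, 0.104 and 0.0673 for replicates 1 to 3), without sgH2AC19 replicate 1 (0.0728) or 3 (0.0539), and with all genes above 0 FPKM tested (0.102).

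CHAF1A was at 3.81, 3.66 and 4.67 FPKM in sgControl and at 4.87, 4.82 and 6.29 FPKM in sgH2AC19. Replicate 3 was the highest of both groups, and the lowest sgH2AC19 library stood just above the highest sgControl library. The log2 fold change of 0.32 was larger than that of CHAF1B but its SE was 0.111, and it was not called (limma adjusted p = 0.0749). With voom on recovered reads it was called at 0.39 (adjusted p = 0.0482). The ratio of CHAF1A to CHAF1B was 1.20 to 1.44 in sgControl and 1.26 to 1.50 in sgH2AC19 (0.07 on the log2 scale, exact permutation test, two-sided p = 0.6, n = 3 each).

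FACT loosens nucleosomes ahead of polymerases and is made of SSRP1 (ENSG00000149136; chromosome 11 from 57325985 to 57335877, minus strand) and SUPT16H (ENSG00000092201; chromosome 14 from 21351472 to 21384266, minus strand). SUPT16H was at 34.5, 32.0 and 35.5 FPKM in sgControl and at 41.9, 42.7 and 42.3 FPKM in sgH2AC19, where the 3 values differed by less than 1 FPKM. It rose from 34.0 ± 1.80 to 42.3 ± 0.388 FPKM (log2 fold change 0.31, SE 0.0485, limma adjusted p = 0.00557), a call that held in all 13 alternative fits with an adjusted p of at most 0.0231. Its partner SSRP1 was at 37.5, 39.2 and 40.0 FPKM in sgControl and at 41.3, 41.2 and 39.3 FPKM in sgH2AC19. These groups overlapped, and the log2 fold change of 0.06 had a 95% interval of −0.04 to 0.16 (limma adjusted p = 0.365), which lies below the interval of SUPT16H, 0.20 to 0.42.

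The ratio of SSRP1 to SUPT16H was 1.09, 1.22 and 1.13 in sgControl replicates 1 to 3 and 0.985, 0.964 and 0.929 in sgH2AC19 replicates 1 to 3. All 3 sgH2AC19 ratios lay below all 3 sgControl ratios, and the difference of −0.26 on the log2 scale (SDs 0.0871 and 0.0428) had an exact permutation p of 0.1, two-sided, the smallest that 3 against 3 libraries allow. Adjusted over the 5 ratios computed it was 0.167. Whether the ratio is above or below 1 depends on the lengths used for the genes, whereas the shift between groups does not.

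**Figure D2:**
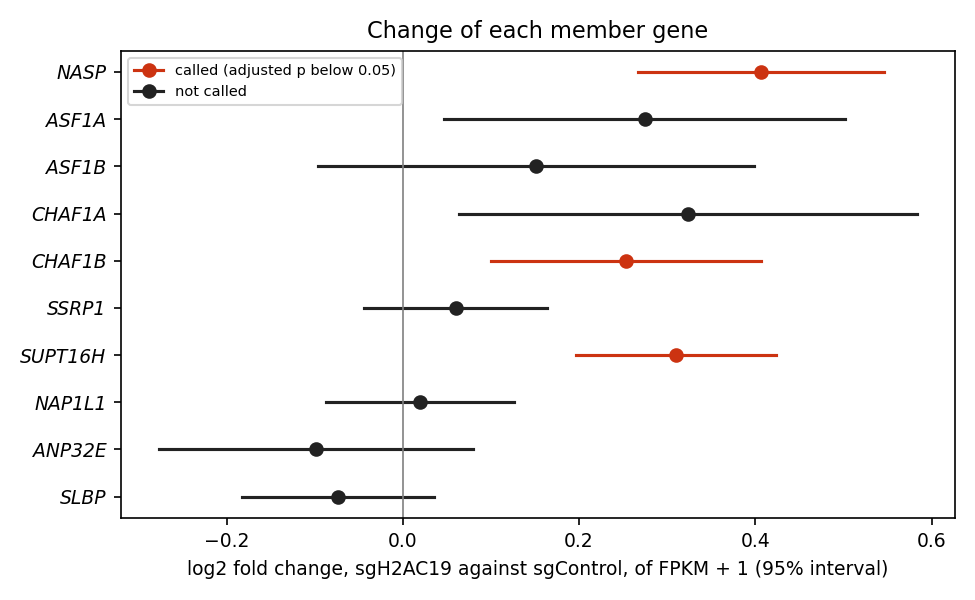
Log2 fold change of each member between sgH2AC19 and sgControl on the FPKM + 1 scale, with the 95% interval of the limma fit. The 3 called members are NASP, SUPT16H and CHAF1B, and the interval of SSRP1 (−0.04 to 0.16) does not reach that of SUPT16H (0.20 to 0.42).

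NAP1L1 (ENSG00000187109; chromosome 12 from 76036587 to 76085033, minus strand), a carrier of H2A-H2B between cytoplasm and nucleus, was the most abundant member. It was at 55.9, 58.2 and 56.7 FPKM in sgControl and at 56.0, 60.7 and 56.6 FPKM in sgH2AC19. The groups overlapped closely, and the log2 fold change of 0.02 had a 95% interval of −0.09 to 0.13 (limma adjusted p = 0.795).

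ANP32E (ENSG00000143401; chromosome 1 from 150218417 to 150236156, minus strand) lies 367 kb from the annotated position of the targeted H2AC19 (149851061 to 149851624 on chromosome 1). It was at 42.1, 47.0 and 44.6 FPKM in sgControl and at 37.3, 42.6 and 45.0 FPKM in sgH2AC19. Its sgH2AC19 libraries spread widely, with replicate 1 below the sgControl range and replicates 2 and 3 within it. The log2 fold change of −0.10 (95% interval −0.28 to 0.08) was not called (limma adjusted p = 0.385).

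SLBP (ENSG00000163950; chromosome 4 from 1692800 to 1712555, minus strand), which is needed for processing and translation of histone mRNAs, was at 21.7, 22.5 and 23.1 FPKM in sgControl and at 20.7, 21.0 and 22.0 FPKM in sgH2AC19. The groups overlapped at their edges. The log2 fold change was −0.07 (95% interval −0.18 to 0.03, limma adjusted p = 0.288), and it was below 0 in all 13 alternative fits and called in none of them.

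The sequences around the start sites of the 3 called members, and of CHAF1A and ASF1B, are shown because words bound by cell cycle factors can be looked for there. They are RefSeq promoters of build GRCh38.p14, 250 bases before the start and the first 10 after it, written 5′ to 3′ on the gene's strand. They lie at chr1:45583791-45584050 on the plus strand for NASP, chr14:21384010-21384269 on the minus strand for SUPT16H, chr21:36385142-36385401 on the plus strand for CHAF1B, chr19:4402390-4402649 on the plus strand for CHAF1A and chr19:14136580-14136839 on the minus strand for ASF1B. Capitals mark any of 7 words on either strand, the E2F words TTTCCCGC, TTTGGCGC, TTTCGCGC and TTTGGCGG, the CCAAT box, and the cell cycle homology words TTTGAA and TTCGAA.
NASP: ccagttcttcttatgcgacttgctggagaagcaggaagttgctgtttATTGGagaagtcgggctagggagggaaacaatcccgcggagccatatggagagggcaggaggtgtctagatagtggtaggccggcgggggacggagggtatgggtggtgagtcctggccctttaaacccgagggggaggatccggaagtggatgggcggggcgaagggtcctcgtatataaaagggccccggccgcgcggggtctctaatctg
SUPT16H: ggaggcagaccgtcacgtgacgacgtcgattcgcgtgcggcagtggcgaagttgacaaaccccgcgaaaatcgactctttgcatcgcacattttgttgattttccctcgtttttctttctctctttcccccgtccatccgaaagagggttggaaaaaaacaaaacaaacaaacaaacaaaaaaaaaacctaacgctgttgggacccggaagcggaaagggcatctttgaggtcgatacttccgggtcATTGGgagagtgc
CHAF1B: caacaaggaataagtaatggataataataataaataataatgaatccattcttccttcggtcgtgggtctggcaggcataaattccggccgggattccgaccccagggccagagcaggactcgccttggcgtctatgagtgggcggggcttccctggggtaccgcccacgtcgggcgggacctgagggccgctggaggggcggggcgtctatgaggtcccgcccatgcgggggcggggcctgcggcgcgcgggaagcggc
CHAF1A: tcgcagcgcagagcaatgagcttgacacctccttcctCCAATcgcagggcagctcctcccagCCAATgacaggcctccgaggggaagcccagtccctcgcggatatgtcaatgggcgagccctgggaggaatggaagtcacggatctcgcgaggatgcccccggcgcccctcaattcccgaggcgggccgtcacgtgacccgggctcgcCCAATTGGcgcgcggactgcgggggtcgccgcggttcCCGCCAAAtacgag
ASF1B: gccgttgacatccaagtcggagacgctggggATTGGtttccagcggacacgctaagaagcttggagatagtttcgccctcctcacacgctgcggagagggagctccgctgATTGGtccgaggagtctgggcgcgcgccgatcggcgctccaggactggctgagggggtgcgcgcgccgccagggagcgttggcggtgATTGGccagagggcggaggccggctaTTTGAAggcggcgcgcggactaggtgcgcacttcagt

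Promoters were given for 9 of the 10 members, and ANP32E was not among them. The words were counted over the full 300 bases of each promoter in the table, for members and background alike, which reach further past the start than the stretches printed. CCAAT was held by 5 of the 9 (NASP, ASF1B, CHAF1A and SUPT16H, and ASF1A past the printed length) and by 34.6% of all 35116 promoters. ASF1B holds 3 CCAAT boxes, the nearest 53 bases before the start, and the word TTTGAA 27 bases before the start. CHAF1A holds 4, of which the plus-strand and minus-strand boxes nearest the start overlap, and the E2F word TTTGGCGG read on the minus strand across the start. E2F words were held by 1 of the 9 and by 3.35% of all promoters, and cell cycle homology words by 1 of the 9 and 16.4%. The holders, CHAF1A and ASF1B, were not called but are printed. SSRP1, NAP1L1 and SLBP, also not called, hold none of the 7 words and are not printed. Among the called members, NASP holds 1 CCAAT box 203 bases before the start, SUPT16H 1 that spans the start, and CHAF1B none of the 7 words. These matches are a description of the letters.

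Some genes of S phase and of mitosis were called higher beside the members, though most were not called. Of 50 tested genes of the S phase and replication list 13 rose and 0 fell by limma. The counts were 25 and 0 before adjustment at the same threshold and 16 and 0 with voom, and the median log2 fold change was 0.17. Of all 12871 genes tested 12.0% were called higher and 11.0% lower, and 2400 and 2438 were so before adjustment. RRM1 and RRM2, the subunits of ribonucleotide reductase, rose by 0.36 and 0.31. The licensing gene CDC6 rose by 0.34, and GMNN, which encodes an inhibitor of licensing, by 0.39. Without sgControl replicate 1 or 2 or sgH2AC19 replicate 2 the count of rises was 7, 6 or 8, and with all genes above 0 FPKM tested it was 5. Of 29 tested G2/M genes 10 rose and 0 fell by limma (15 and 0 before adjustment at the same threshold, 10 and 0 with voom). MYBL2, BIRC5, CENPF and CCNB2 led these by adjusted p, with log2 fold changes of 0.63, 0.56, 0.39 and 0.29. The count of rises was 5 without sgControl replicate 1 or 2, 6 without sgH2AC19 replicate 2, and 5 with all genes above 0 FPKM tested.

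Per library, the median over the S phase list of the log2 difference from the sgControl mean was −0.02, −0.08 and 0.10 in sgControl replicates 1 to 3 and 0.15, 0.18 and 0.29 in sgH2AC19 replicates 1 to 3. The highest library of each group was thus replicate 3, as for NASP, CHAF1A and CHAF1B, and also for SLBP, whose level did not rise. ASF1A was lowest in replicate 3 of both groups. SUPT16H, SSRP1 and ASF1B were highest in replicate 3 of sgControl but not of sgH2AC19. ANP32E was highest there in sgH2AC19 only, and NAP1L1 in neither group. The part of the S phase share of cells in the members' rises was not tested. NASP stood at 1.55, 1.69 and 1.49 times the median FPKM of the S phase list in sgControl. In sgH2AC19 it stood at 1.74, 2.09 and 2.07 times. Its rise was larger than that of this median in these libraries, by 0.31 on the log2 scale. The exact permutation p was 0.1, two-sided, the smallest possible, and 0.167 adjusted over the 5 ratios. SLBP went the other way, from 2.92, 3.28 and 2.83 times that median to 2.43, 2.76 and 2.67 times (−0.20 on the log2 scale, with the same p and adjusted p), and its groups did not overlap either. With the mean of the list in place of its median, the differences were 0.24 for NASP and −0.27 for SLBP.

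**Figure D3:**
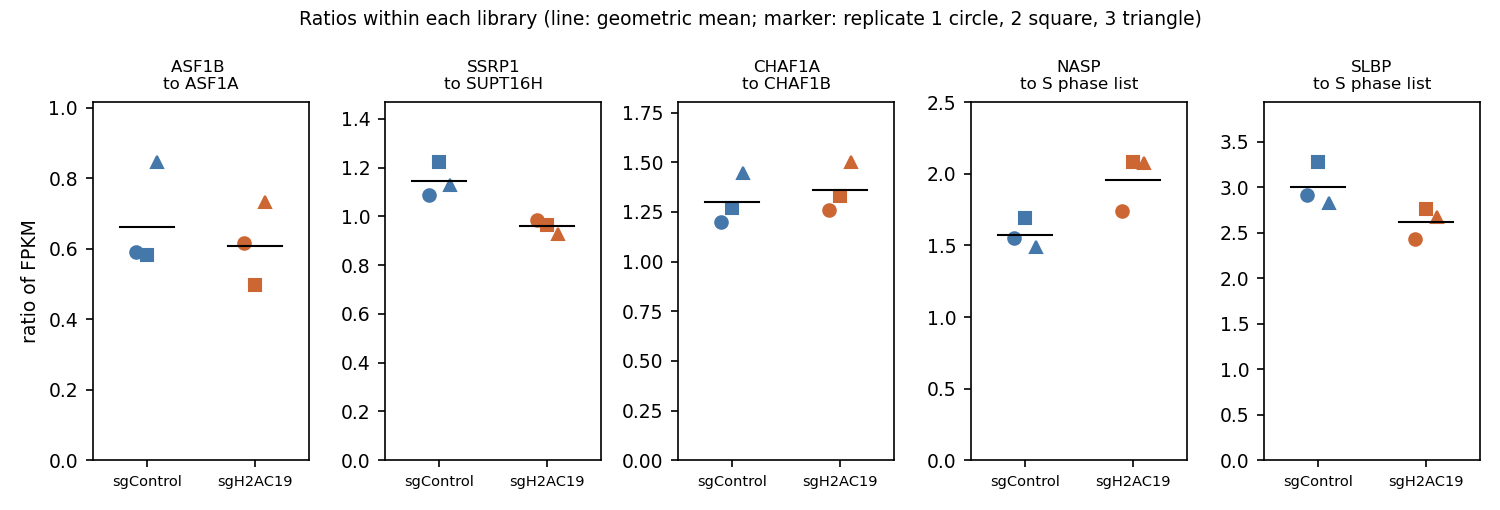
FPKM ratios within each library, with one marker per replicate and a line at the geometric mean of the group; axes start at 0. SSRP1 to SUPT16H is lower in all 3 sgH2AC19 libraries (0.929 to 0.985) than in all 3 sgControl libraries (1.09 to 1.22), while ASF1B to ASF1A and CHAF1A to CHAF1B overlap between groups.

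Beyond the members, further genes that carry or place H3-H4 rose in part. Of 22 tested, 7 rose and 0 fell by limma (7 and 0 before adjustment at the same threshold, 7 and 0 with voom). Their median log2 fold change was 0.05. Among all 12871 genes tested 12.0% were called higher and 11.0% lower, and 2400 and 2438 were so before adjustment. TLK2, a kinase that phosphorylates ASF1, rose from 2.13 ± 0.0162 to 3.54 ± 0.145 FPKM (0.53, SE 0.0536, limma adjusted p = 0.00131), further than any of the 10 members. CABIN1 and UBN1, which belong to the HIRA complex that places H3.3 outside replication, rose by 0.39 and 0.27. HIRA itself lay between 0.456 and 1.36 FPKM and did not pass the filter. HAT1, which acetylates new H4, rose by 0.31, and RBBP4, the small subunit of CAF-1, rose from 7.57 ± 0.446 to 9.45 ± 0.474 FPKM (0.29, limma adjusted p = 0.0146). RBBP7 and HJURP, named after their values were seen as the remaining 2 of the 7, rose by 0.17 and 0.34. TONSL and DNAJC9, which take up new H3-H4, were at −0.02 and 0.04 and not called. Without sgControl replicate 2 the count of rises in this list was 4.

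Of 16 tested further genes for H2A-H2B chaperones and exchange factors, 0 rose and 1 fell by limma (2 and 3 before adjustment at the same threshold, 0 and 2 with voom). The fall was that of TSPYL2, a NAP1 family member, from 6.93 ± 0.424 to 5.53 ± 0.352 FPKM (−0.28, SE 0.063, limma adjusted p = 0.0197), and with all genes above 0 FPKM tested or without sgControl replicate 1 or 2 no fall was called. Under median-ratio or upper-quartile scaling 2 falls were called. By limma 12.0% of all 12871 genes tested were called higher and 11.0% lower, and 2400 and 2438 were so before adjustment. NAP1L4, the closest relative of NAP1L1, was at 22.2 ± 1.23 and 24.4 ± 0.632 FPKM (0.13, limma adjusted p = 0.109). The ANP32E relatives ANP32A and ANP32B were at 0.00 and 0.05, and VPS72, a subunit of the complex that puts H2A.Z into chromatin, at −0.12, none of them called.

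Genes around SLBP mostly were not called, like 9904 of all 12871 genes tested. In the list of histone locus body and histone mRNA processing factors 2 of 22 tested rose and 0 fell by limma. The counts were 4 and 5 before adjustment at the same threshold and 2 and 1 with voom. Over all genes tested 12.0% were called higher and 11.0% lower, and 2400 and 2438 genes were so before adjustment. CPSF3, the nuclease that cuts histone pre-mRNA, went from 22.5 ± 0.552 to 25.4 ± 0.791 FPKM (0.17, limma adjusted p = 0.0329) and CSTF3 rose by 0.25. No rise was called with all genes above 0 FPKM tested, without sgControl replicate 1 or 2, or without sgH2AC19 replicate 1 or 2, 1 was called without sgControl replicate 3, and 2 were called without sgH2AC19 replicate 3. A fall was called for 1 gene without sgControl replicate 2. NPAT and CASP8AP2, which build the histone locus body, were at −0.02 and −0.09, and the U7 snRNP genes LSM10 and LSM11 at 0.01 and −0.06. ZNF473, CPSF2 and SYMPK were at 0.16, 0.05 and −0.01, and none of these 7 was called.

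In the list of histone mRNA export, translation and decay factors 2 of 21 tested rose and 2 fell by limma. Before adjustment the counts were 3 and 3. The shares called over all 12871 genes tested were 12.0% higher and 11.0% lower, and before adjustment 2400 genes were higher and 2438 lower. ERI1, the exonuclease that trims the histone mRNA stem-loop, went from 12.2 ± 0.265 to 10.2 ± 0.879 FPKM (−0.23, SE 0.0645, limma adjusted p = 0.0409). TUT7, which adds uridines to histone mRNA before decay, fell from 6.43 ± 0.166 to 5.09 ± 0.165 FPKM (−0.29, SE 0.0475, limma adjusted p = 0.00689). CTIF, a translation factor that works with SLBP, rose by 0.45, and LSM4 by 0.25. Each direction held 1 call without any 1 library other than sgH2AC19 replicate 3, with the replicate block and with all genes above 0 FPKM tested, and 3 without sgH2AC19 replicate 3. Under median-ratio or upper-quartile scaling 1 fall was called.

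**Figure D4:**
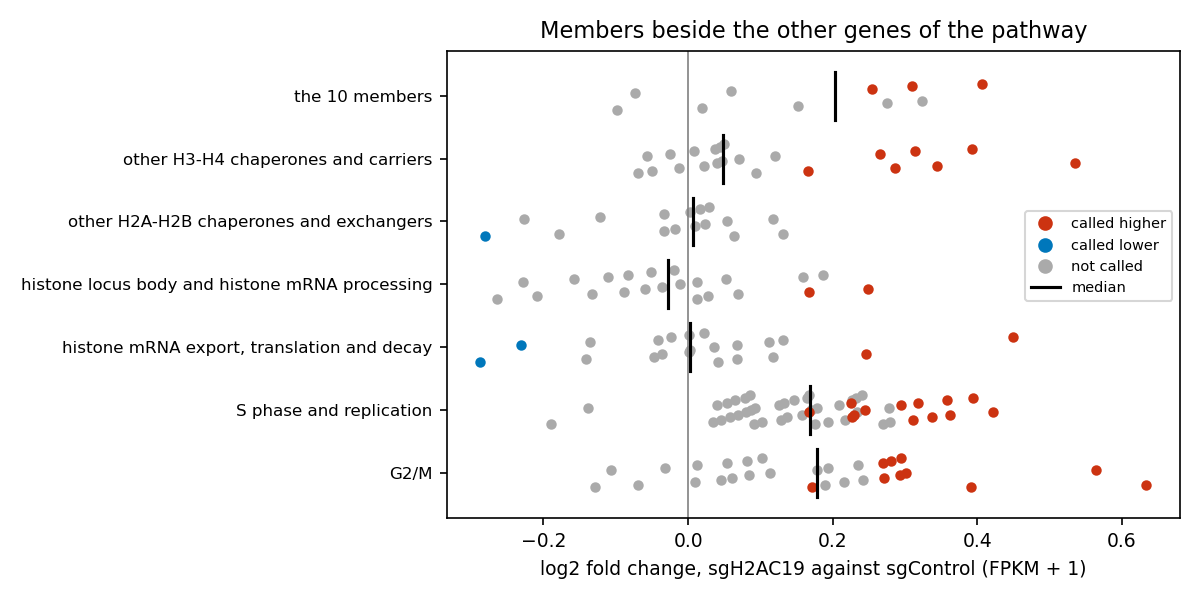
Log2 fold change of the 10 members and of the tested genes of 6 related lists, with one point per gene, coloured by call, and a line at the list's median. The medians are 0.20 for the members, 0.05 for other H3-H4 carriers, 0.01 for H2A-H2B chaperones, −0.03 and 0.00 for the histone mRNA lists, 0.17 for S phase and 0.18 for G2/M.

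By the smallest root mean square difference over the 6 libraries, the genes whose pattern lay closest to NASP were PRKAR2A, DENND5B and UBE3A (0.0174, 0.026 and 0.0275 on the log2 scale, against a median of 0.316 over all genes tested). Those closest to SUPT16H were RBPMS2, C4orf46 and GPC1 (0.0201, 0.0208 and 0.022). For CHAF1B they were SELENON, HSPA14 and the replicative helicase gene MCM6 (0.0141, 0.0203 and 0.0253), and MCM6 is on the S phase list.

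Some reads may be shared with other genes. The table holds 5 genes named as pseudogene copies of NASP, SUPT16H or NAP1L1, none above 1.33 FPKM in any library. CHAF1B overlaps MORC3 by 771 bases on the same strand in GENCODE 29, and MORC3 fell (−0.30, limma adjusted p = 0.00842) while CHAF1B rose. The part of shared reads in either change was not tested. Genes on the opposite strand overlap 7 members, and among them MCM9, at 0.805 to 1.06 FPKM, spans all of ASF1A. Whether the counting used strand is not given in the sources used here.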

How the data were processed

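RNA of A549 cells was measured in 6 libraries, 3 sgControl and 3 sgH2AC19, made with a SMARTer mRNA kit per the labels' protocols. The deposited values are FPKM computed by the authors, 1 column per library, per the file headers. Which aligner, counter and annotation produced them is not given in the sources used here. The submitters' processing notes name the mouse builds GRCm38 and mm10, while all 62700 IDs match human genes. The sgNC columns stand for sgControl, the sgH2AC columns for sgH2AC19, each matched by its number, and 0 columns were left unused.

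A gene entered the test if 3 or more libraries had 1 FPKM or more. It was tested as log2(FPKM + 1) with limma 3.58.1 (R 4.3.3) and a mean-variance trend, two-sided. Fold changes on this scale understate those of low genes. SEs and 95% intervals are those of the fit, and SDs are over libraries. Whole reads (tolerance 0.001) were recovered for 12870 of 12871 genes from exon lengths of GENCODE 29 or the smallest length that gave whole reads, and served only for depth and for voom with trimmed-mean scaling. Ratios used exact permutation tests. Other steps used Python 3.11.15, scipy 1.17.1 and matplotlib 3.10.9.

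Alternatives changed the scaling, pseudocount, filter, replicate block, test (voom) or left out 1 library. The members and all gene lists were chosen with earlier results of these data known. Named genes are the members, the 4 (or fewer) called genes per list that had the lowest adjusted p, partners in the members' complexes, and the 3 genes nearest in pattern to each called member. HIRA, RBBP7, HJURP, MORC3 and MCM9 were named after their values were seen.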

Additional observations from a re-analysis of the deposited data

How the results depend on the processing

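NASP and SUPT16H kept their calls in all 13 alternatives. The members called higher numbered 5 with voom on recovered reads and 5 with the replicate block, where ASF1A and CHAF1A joined, and 2 to 3 when 1 library was left out. All genes called numbered 2967, against 3570 with voom on recovered reads and 2729 with the replicate block. They numbered 1553 over all genes above 0 FPKM, and 1513 to 3429 when 1 library was left out. Over all genes above 0 FPKM more genes are adjusted for and the mean-variance trend is fitted anew. The part of each in the lower count was not tested. Of 130 refits of single members 1 changed sign, NAP1L1, which ran from −0.0159 without sgH2AC19 replicate 2 to 0.0405 without sgH2AC19 replicate 1. The ratio of ASF1B to ASF1A changed sign without sgControl replicate 3 (0.0529) or sgH2AC19 replicate 2 (0.02) and ran from −0.26 to 0.0529, and that of CHAF1A to CHAF1B without sgH2AC19 replicate 3 (−0.00496), running from −0.00496 to 0.14. The cause was not tested. The other 3 ratios kept their sign in all settings. Deviations of same-numbered libraries had r of 0.052, 0.035 and 0.06, all near 0, against −0.046 to 0.005 for other pairs. Each was best with its own number, but this was not tested and does not come from the design. The block was therefore kept as an alternative. Scaling factors between libraries lay between 0.978 and 1.02. With 3 libraries a group, the exact permutation test used for the ratios cannot give a p below 0.1.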
